A study of Arabidopsis thaliana with 80 samples.

Results

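The 9 genes described here encode the enzymes that make the common plant polyamines, among 33602 genes in a table of rosette expression from Arabidopsis thaliana. They were chosen on measured values: AT5G15950 was picked from these data for its large fall between morning and evening, and the other 8 genes were added by their place in the pathway. They are the arginine decarboxylase genes ADC1 (AT2G16500) and ADC2 (AT4G34710), the S-adenosylmethionine decarboxylase genes SAMDC (AT3G02470), AT5G15950, AT3G25570 and BUD2 (AT5G18930), the spermidine synthase genes SPDS1 (AT1G23820) and SPDS2 (AT1G70310), and the spermine synthase gene SPMS (AT5G53120). All 9 passed the filter on low values that left 20871 genes for testing.

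The plants were Bon, Moj and Vel, natural accessions from southern Spain, and Col-0, the reference line, with no treatment named in the labels, grown side by side in pots in a botanical garden. Rosettes without roots or flower stalks were taken between 10:00 and 10:30 (morning) and between 15:30 and 16:00 (called evening in the labels), at collections named ex1 to ex4, of which ex4 held Col-0 and Vel only. Each library came from a pool of 5 plants, and 80 libraries formed 28 groups of accession, collection and time, 24 with 3 libraries and 4 with 2. The labels speak of vegetative, inductive and reproductive stages, do not pair them with the collections, and give ex1 to ex4 under the heading extraction, so that stage, date and extraction cannot be told apart. The sources used here do not give plant ages. All libraries came from pools grown in this 1 garden, and p-values rest on the spread between those pools.

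Polyamines are small, positively charged molecules found in all plant cells and known for their part in growth and in stress tolerance. Arginine decarboxylase starts the route from arginine, through agmatine, to putrescine. S-adenosylmethionine decarboxylase makes the aminopropyl donor that spermidine synthase adds to putrescine and that spermine synthase adds to spermidine. In plants, short reading frames upstream of the coding region of S-adenosylmethionine decarboxylase mRNAs are known to lower its translation when polyamines are abundant.

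Values are levels in log2 units of an expression estimate that appears to be normalized for gene length, with an offset of 1. Neither that scale nor the quantile normalization seen in the values is stated, and comparisons of levels between genes rest on the length normalization. Each column had the same highest value and the same median, 1.22, and between 20428 and 22858 genes had a value above 0. The table holds no counts, so the depth behind a value is unknown. The library labelled Moj ex3 morning replicate 1 was left out by the rule that chose the genes: it correlated best over genes with Vel ex3 morning replicate 1 (Pearson r = 0.984), and its AT5G15950 level of 9.20 lay below the 10.38 and 10.55 of the other libraries of its group and near the 8.90 and 9.15 of Vel ex3 morning. The 79 libraries used form 23 groups of 3 and 5 of 2. Of the leaf markers, the Rubisco small subunit gene RBCS1A was at 10.89 or higher and the Rubisco activase gene RCA at 10.04 or higher in each library, and the light-harvesting gene CAB2 ran from 3.81 to 12.07. Of the root markers, EXPA7, PRP3 and SHV2 were listed at 0 in 72, 73 and 62 of the 79 libraries, whereas PYK10 was above 0 in each library, between 0.32 and 5.37.

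On the TAIR10.1 assembly, a later release of the TAIR10 assembly used by the authors, the RefSeq annotation places ADC1 at chr2:7150514-7153430 on the minus strand and ADC2 at chr4:16560030-16563044 on the minus strand. SAMDC lies at chr3:508886-511561 (plus), AT5G15950 at chr5:5205869-5208036 (plus), AT3G25570 at chr3:9287178-9289338 (minus) and BUD2 at chr5:6311725-6313372 (minus). SPDS1 lies at chr1:8420265-8422985 (plus), SPDS2 at chr1:26485238-26487595 (minus) and SPMS at chr5:21534473-21537816 (plus). In the annotation all 6 decarboxylase genes have their coding sequence in 1 exon, while SPDS1, SPDS2 and SPMS have 9, 8 and 11 coding exons. Upstream reading frames are annotated in SAMDC (138 and 21 bases), AT3G25570 (144 and 21 bases) and AT5G15950 (156 bases), and none in BUD2. The coding sequences of SAMDC and AT5G15950 are 79.3% identical, those of ADC1 and ADC2 83%, and those of SPDS1 and SPDS2 85.4%. No pair within a family shared a run of 50 bases in its transcripts.

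The 250 bases before the annotated start of the gene are shown for AT5G15950, which had the largest evening difference of the 9 genes, and for SAMDC and SPDS1, because these hold the same G-box and, from ex2 on, differed between evening and morning in opposite directions, whereas in ex1 both were lower in the evening (-0.75 and -0.16). They are from RefSeq, TAIR10.1, written 5′ to 3′ on the strand of the gene, with the G-box in capitals, at chr5:5205619-5205868 (plus), chr3:508636-508885 (plus) and chr1:8420015-8420264 (plus).
AT5G15950: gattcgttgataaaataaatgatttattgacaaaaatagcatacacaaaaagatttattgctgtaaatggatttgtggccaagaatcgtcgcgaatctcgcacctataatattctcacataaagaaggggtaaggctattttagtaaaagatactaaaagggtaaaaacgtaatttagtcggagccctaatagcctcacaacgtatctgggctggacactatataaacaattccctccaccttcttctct
SAMDC: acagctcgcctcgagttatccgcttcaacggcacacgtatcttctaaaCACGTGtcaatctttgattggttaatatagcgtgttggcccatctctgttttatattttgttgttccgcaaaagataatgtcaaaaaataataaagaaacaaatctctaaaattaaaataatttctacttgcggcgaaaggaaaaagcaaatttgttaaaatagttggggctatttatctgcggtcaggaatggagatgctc
SPDS1: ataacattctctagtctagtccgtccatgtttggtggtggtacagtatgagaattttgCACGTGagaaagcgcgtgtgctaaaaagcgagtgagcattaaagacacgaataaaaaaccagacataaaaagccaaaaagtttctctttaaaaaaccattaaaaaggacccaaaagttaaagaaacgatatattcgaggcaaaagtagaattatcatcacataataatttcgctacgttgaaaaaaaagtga
Motifs were searched on both strands of these windows, alone and whether or not they overlapped each other. The G-box CACGTG, a light- and clock-linked element, occurred 202 to 197 bases before the start of SAMDC and 192 to 187 bases before that of SPDS1, and in 6.49% of 27443 promoters of this length. The CCA1 binding site AAAAATCT, named for a morning clock factor, occurred in ADC2 alone, 157 to 150 bases before its start, and in 6.69% of promoters. The evening element AAAATATCT (2.36% of promoters) and the I-box GATAAG (12.3%) occurred in none of the 9 windows. The window of AT5G15950 held none of these letters.

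AT5G15950 was abundant in rosettes in the morning and far lower in the evening, and the gap was wider from ex2 on. Morning levels in ex1 ran from 8.35 to 9.64 over 12 libraries (median 9.09) and evening levels from 6.08 to 7.53 over 10 (median 6.99). In ex2 the morning levels kept to 8.45 to 9.40 (median 9.05, n = 12), and the evening levels lay between 2.55 and 4.23 (median 3.95, n = 12). In ex3 the morning levels ran from 8.90 to 10.55 (median 9.76, n = 10) and the evening levels from 1.83 to 3.93 (median 3.72, n = 12). Morning and evening did not overlap in any collection, nor in any of the 14 pairs of accession and collection. For this and the other genes, the share of all genes without such overlap was not computed, so non-overlap is given as a description. In rank among all genes it ranged from 17 in its highest library to 15024 in its lowest. Averaged over ex1 to ex3, the evening difference that chose this gene was -4.63 (SE 0.05), and the collections gave -2.14 (ex1), -5.34 (ex2) and -6.41 (ex3), given as a description without a test. In bulk rosettes, fewer cells that hold a transcript and less of it per cell cannot be told apart.

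**Figure D1:**
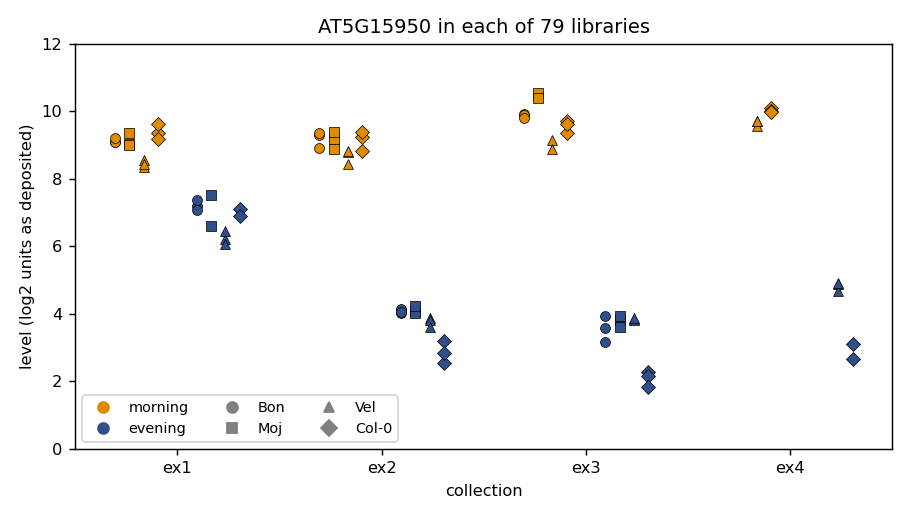
Level of AT5G15950 in log2 units (vertical axis) in each of 79 libraries by collection (horizontal axis), with colour for time of day and symbol for accession, 1 point per library. Morning libraries stay between 8.35 and 10.55 in every collection, whereas evening libraries lie between 6.08 and 7.53 in ex1 and between 1.83 and 4.93 in ex2 to ex4.

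The pattern was the same in ex4, which is also given as a description for AT5G15950, since its choice covered all collections. The Col-0 morning libraries of ex4 read 10.09, 10.02 and 9.97 and the evening libraries 2.66 and 3.10. The Vel morning libraries read 9.73, 9.57 and 9.71 and the evening libraries 4.88, 4.69 and 4.93. Every evening library was thus below every morning library, and Col-0 was lower than Vel in the evening and higher in the morning. The evening difference over both accessions was -5.99 (SE 0.13). In the limma fit with Benjamini-Hochberg adjustment, 6 of the 9 genes passed the threshold in the ex4 evening, 3 up and 3 down, against 48.9% of all genes tested. That count includes AT5G15950, whose pass follows from its choice and adds no support. Beside these differences, the leaf markers RBCS1A and CAB2 fell in the ex4 evening by 1.54 and 4.54, and their part was not tested.

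SAMDC had the highest mean level of the 9 genes over the 79 libraries, although AT5G15950 exceeded it in some morning libraries. SAMDC was also lower in every evening group. Its morning levels in ex4 were 9.64, 9.86 and 9.80 in Col-0 and 9.71, 9.97 and 10.28 in Vel, against evening levels of 8.08 and 8.57 in Col-0 and 8.68, 8.30 and 8.47 in Vel. The groups did not overlap in either accession, and SAMDC fell by 1.47 (SE 0.14, limma adjusted p = 2.56e-13). Over ex1 to ex3 the average difference was -1.37 (SE 0.06), from -0.75 in ex1 to -1.73 in ex2 and -1.63 in ex3, and it was negative without overlap in all 12 pairs. SAMDC ranked between 9 and 291 among all genes.

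AT3G25570 and BUD2, the remaining members of the family, were far lower in level and had no evening fall shared by all accessions and collections. AT3G25570 ran from 1.35 to 4.20 over all 79 libraries (median 2.98), and its evening difference was negative in 8 and positive in 4 of the 12 pairs of ex1 to ex3. The pairs ran from -0.64 to -0.35 in Bon, -0.89 to -0.31 in Moj, -0.22 to 0.07 in Vel and 0.02 to 0.45 in Col-0. Only 2 of the 12 pairs were without overlap, both lower. In ex4 its difference of 0.50 did not pass (SE 0.28, 95% interval -0.06 to 1.06, limma adjusted p = 0.138). BUD2, a gene named for the bushy, dwarf plants of its mutant, ran from 0.56 to 1.80 (median 1.14). Its evening difference was -0.37 in ex1, where 4 of 4 pairs were lower, 0.06 in ex2 and 0.24 in ex3, where 4 of 4 were higher, which averaged to -0.02 (SE 0.05). In ex4 it was -0.19 (SE 0.12, limma adjusted p = 0.203), lower without overlap in both accessions. At such levels, near the offset, differences are understated.

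The makeup of the S-adenosylmethionine decarboxylase transcripts differed by time of day. Taken back from the log scale, AT5G15950 made up 23.8% to 65.0% of the summed level of the 4 genes in the 40 morning libraries (median 43.0%). In the 39 evening libraries it made up 1.05% to 31.1% (median 4.40%), and the values above 7.55% were all from ex1. SAMDC made up a median of 56.7% in the morning and 93.1% in the evening. AT3G25570 and BUD2 together stayed at or below 6.54% in every library. The log2 of the summed level ran from 9.88 to 11.47 in the morning and from 7.94 to 9.26 in the evening, without overlap.

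**Figure D2:**
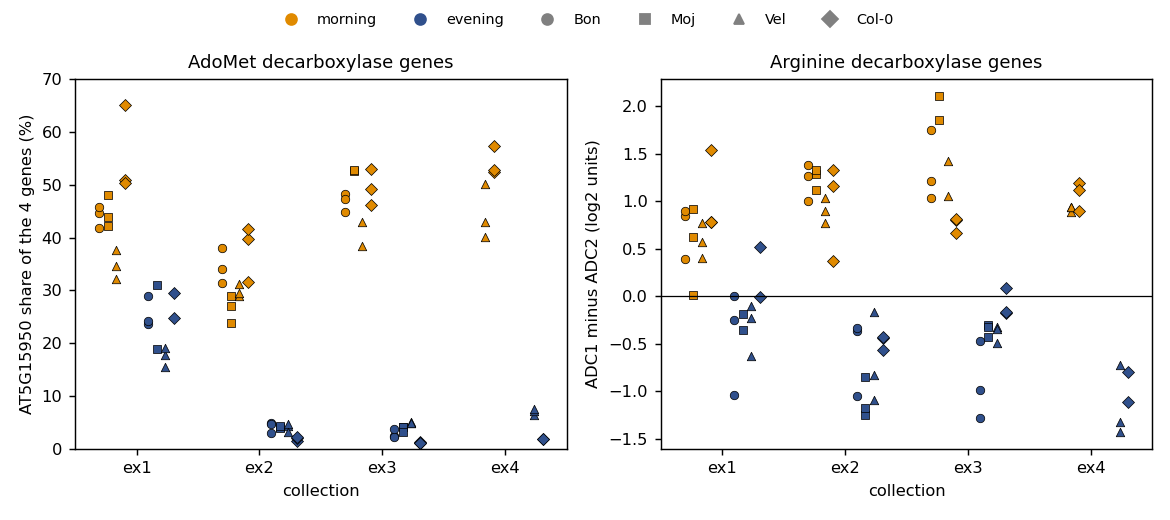
Left, share of AT5G15950 in the summed back-transformed level of the 4 S-adenosylmethionine decarboxylase genes, in percent; right, ADC1 minus ADC2 in log2 units; both in each of 79 libraries by collection, with colour for time of day and symbol for accession. The share is at most 7.55% in the evening from ex2 on, and ADC1 exceeds ADC2 in all 40 morning libraries and in 3 of 39 evening libraries.

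The arginine decarboxylase genes, which begin the pathway, parted by time of day. ADC1 in ex4 read 6.26, 6.94 and 6.49 in the Col-0 morning libraries and 6.64, 6.73 and 6.34 in those of Vel, and 3.88 and 4.18 in the Col-0 evening libraries and 4.91, 4.27 and 4.24 in those of Vel. All evening values were below all morning values, and ADC1 fell by 2.32 (SE 0.15, limma adjusted p = 1.04e-19). The description over ex1 to ex3 gave -1.70 (SE 0.06), with -0.91, -1.95 and -2.22 in the successive collections and no overlap in any of 12 pairs. ADC2, which is known as the stress-responsive copy, had an ex4 difference of -0.26 that did not pass (SE 0.20, 95% interval -0.67 to 0.14, limma adjusted p = 0.283). Its Vel evening libraries alone spread from 4.96 to 6.33. ADC1 exceeded ADC2 in all 40 morning libraries, by 0.02 to 2.11 (median 0.94), and in 3 of 39 evening libraries, where the median was -0.43.

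The aminopropyl transferase genes had the opposite sign from ex2 on. In ex4 SPDS1 lay between 5.21 and 5.51 in 6 morning libraries (median 5.37) and read 6.07 and 6.10 in the Col-0 and 6.13, 6.20 and 6.15 in the Vel evening libraries, a rise of 0.75 (SE 0.07, limma adjusted p = 3.85e-14). SPDS2 lay between 4.15 and 4.38 in the morning (median 4.24) and between 5.06 and 5.27 in the evening (median 5.23), a rise of 0.91 (SE 0.09, limma adjusted p = 2.9e-13). SPMS lay between 4.57 and 5.11 in the morning (median 4.87) and between 6.19 and 6.50 in the evening (median 6.42), a rise of 1.54 (SE 0.15, limma adjusted p = 1.6e-12). No evening library of ex4 overlapped the morning libraries in these 3 genes, and how common this was among all genes was not computed. SPMS was higher in the evening in all 12 pairs of ex1 to ex3 as well, with a mean difference of 0.88 (SE 0.06). SPDS1 and SPDS2 were higher in the 8 pairs of ex2 and ex3 without overlap. In ex1 they were not: SPDS1 was lower in the evening in all 4 accessions, by 0.04 to 0.33, and SPDS2 was lower in 2 and higher in 2. The log2 ratio of the summed S-adenosylmethionine decarboxylase level to the summed synthase level ran from 3.37 to 5.83 in the morning and from 0.66 to 2.64 in the evening.

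**Figure D3:**
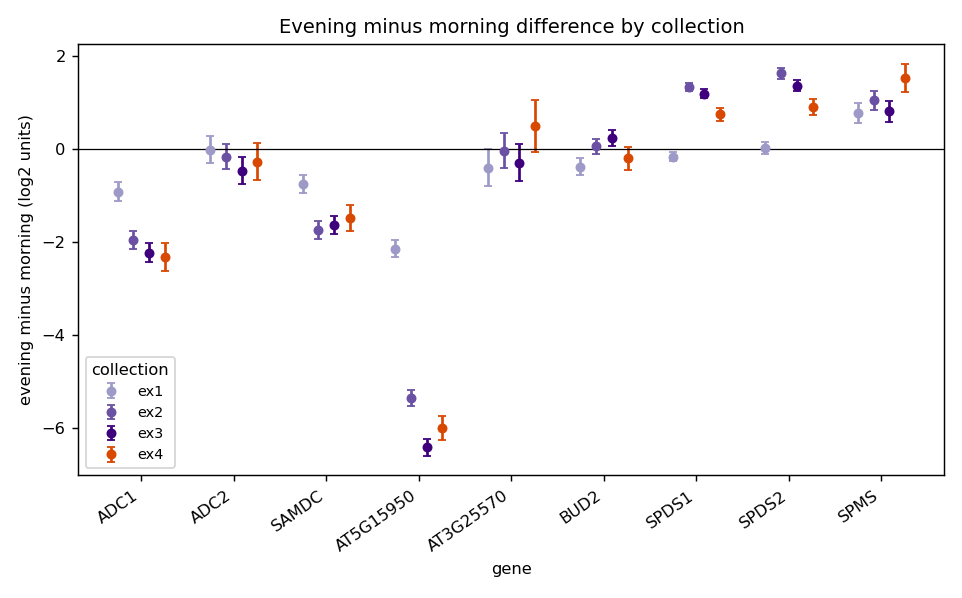
Evening minus morning difference in log2 units (vertical axis) of each of the 9 genes (horizontal axis) in each collection, averaged over accessions, with bars for the 95% interval of the limma fit. AT5G15950 reaches -6.41 in ex3, ADC1 and SAMDC are below 0 in each collection, and SPDS1 and SPDS2 are above 0 in ex2 to ex4 but not in ex1, where they are at -0.16 and 0.03; ex1 to ex3 are shown as a description.

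Whether the evening difference itself differed between collections was tested with the difference of differences, another contrast than the average behind the choice. For AT5G15950 it reuses the values behind the choice. The changes of that gene are therefore given as a description, and its part in the counts is no support. From ex1 to ex2, 6 of 9 genes passed, 3 in each direction, against 59% of all genes. The evening difference became more negative in AT5G15950 by -3.20 (SE 0.12), in ADC1 by -1.04 (SE 0.14, limma adjusted p = 1.02e-08) and in SAMDC by -0.98 (SE 0.13, adjusted p = 9.39e-09). It became more positive in SPDS2 by 1.60 (SE 0.08), in SPDS1 by 1.50 (SE 0.07) and, at its low level, in BUD2 by 0.43 (SE 0.12, adjusted p = 0.00155). SPMS, with 0.28 (95% interval -0.02 to 0.57), did not pass, but did without Col-0 ex2 morning replicate 3, Moj ex2 morning replicate 1 or Vel ex2 evening replicate 2 (adjusted p between 0.0338 and 0.0445). From ex2 to ex3, 2 of 9 genes passed, both with a negative sign, against 36.3% of all genes: AT5G15950 by -1.07 (SE 0.12) and SPDS2 by -0.26 (SE 0.08, limma adjusted p = 0.0104). From ex3 to ex4, in Col-0 and Vel, SPDS1 (-0.31, SE 0.10, limma adjusted p = 0.0281) and SPDS2 (-0.37, SE 0.12, adjusted p = 0.0394) passed, 2 of 9 against 9.94% of all genes. The last calls were marginal: without any 1 of 7 of the 22 libraries the adjusted p of SPDS1 was between 0.0505 and 0.079, and without any 1 of 15 that of SPDS2 was between 0.0501 and 0.101. The sampling hours were the same in every collection, while the sources used here give neither dates nor day length.

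The average of morning and evening also moved between collections. From ex1 to ex2, 7 of the 9 genes passed, 3 up and 4 down, against 83.2% of all genes, so the share was near the background. SPMS rose by 1.15 (SE 0.07) and AT3G25570 by 0.75 (SE 0.14), and SAMDC by 0.31 (SE 0.07). AT5G15950 fell by 1.58 (SE 0.06), ADC1 by 0.96 (SE 0.07), ADC2 by 0.88 (SE 0.10) and SPDS2 by 0.45 (SE 0.04), the largest limma adjusted p among the 7 being 3.76e-05. ADC2 had evening levels of 5.82 to 7.37 in ex1 (median 6.76, n = 10) and 5.17 to 6.26 in ex2 (median 5.69, n = 12), and morning levels of 5.89 to 7.45 and 5.55 to 6.63. It was lower in ex2 than in ex1 in each accession, by 0.52 in Col-0 to 1.17 in Vel. The fall of AT5G15950 was an evening one: its morning median was 9.09 in ex1 and 9.05 in ex2. It thus draws on the evening values behind the choice of the gene, and its part in the count is no support. Beside these changes, all 6 xylem markers fell from ex1 to ex2 (median -0.55) and 5 of 6 rose from ex2 to ex3 (median 1.21), while 4 of 6 flower organ markers rose from ex1 to ex2 (median 0.47) and the root gene PYK10 fell in both steps (-1.24 and -1.12). Their part was not tested. From ex2 to ex3, 5 of 9 passed against 54.7% of all genes, with ADC2 (-0.34), SAMDC (-0.21) and BUD2 (-0.16) down and SPDS1 (0.14) and AT5G15950 (0.15) up. The change of AT5G15950 had a limma adjusted p of 0.0385, which rose to 0.0513 to 0.0809 without any 1 of 14 of the 46 libraries, to 0.106 with an offset of 0.1 and to 0.276 with the library left out put back.

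From ex3 to ex4, SPMS rose by 1.32 (SE 0.11, limma adjusted p = 1.91e-15), the largest change of the 9 genes there. Its morning levels ran from 3.26 to 5.46 in ex3 over 4 accessions (median 4.18, n = 10) and from 4.57 to 5.11 in ex4 (median 4.87, n = 6), and its evening levels from 4.42 to 5.82 and from 6.19 to 6.50. Col-0 rose by 1.22 and Vel by 1.43 in the mean of both times. AT5G15950 (0.72, SE 0.09) and SAMDC (0.34, SE 0.10) rose and ADC1 fell by 0.37 (SE 0.10), which made 4 of 9 called against 56.7% of all genes. Markers of other cells moved between these collections too. The summed back-transformed level of 6 xylem markers ran from 12.2 to 26.3 in the Col-0 and Vel libraries of ex3 and from 42.4 to 154 in those of ex4, and 5 of the 6 passed, 3 up and 2 down. The leaf markers RBCS1A and CAB2 fell by 0.82 and 2.68. All 6 flower organ markers fell from ex3 to ex4, with a median difference of -0.66, from sums between 0.34 and 28.6 to sums between 0.16 and 5.75. The part of these cells in the changes of the 9 genes was not tested.

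**Figure D4:**
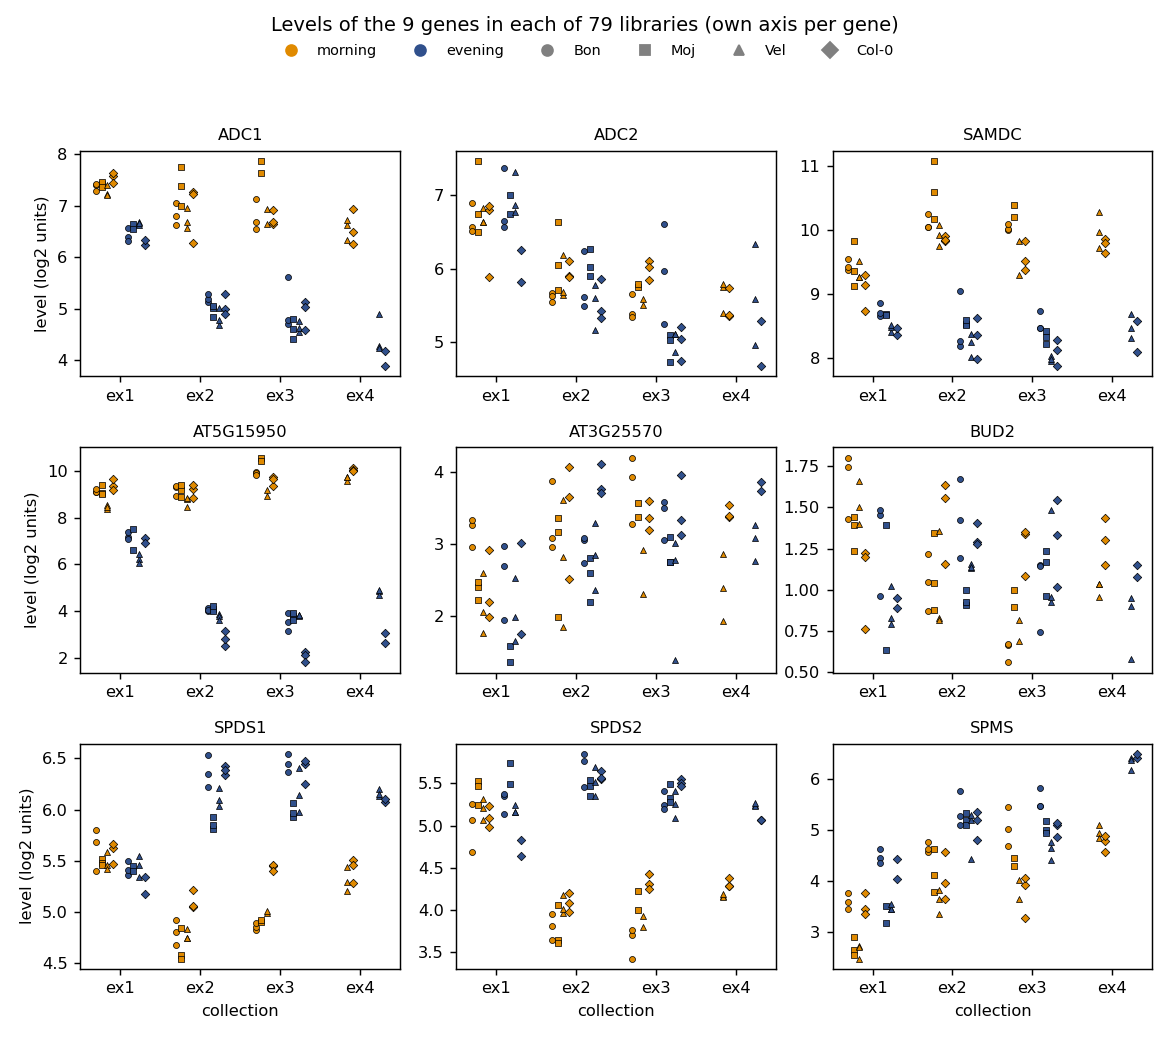
Levels of the 9 genes in log2 units (vertical axes, each gene with its own range) in each of 79 libraries by collection (horizontal axes), with colour for time of day and symbol for accession. SPMS in ex4 evening lies between 6.19 and 6.50, above all its other libraries, and SPDS1 and SPDS2 separate by time of day from ex2 on, while AT3G25570 and BUD2 spread widely within groups.

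Accessions were compared over ex1 to ex3. Bon exceeded Col-0 in SPMS by 0.51 (SE 0.08), in AT5G15950 by 0.50 (SE 0.07) and in SAMDC by 0.35 (SE 0.08), and was lower in SPDS1 (-0.11, limma adjusted p = 0.0116) and SPDS2 (-0.11, adjusted p = 0.0464). That is 5 of 9 genes, against 66.5% of all genes, and the call of SPDS2 ended without any 1 of 18 of the 35 libraries (adjusted p between 0.0502 and 0.119). Moj exceeded Col-0 in AT5G15950 by 0.62 (SE 0.07), in SAMDC by 0.43 (SE 0.08), in ADC2 by 0.27 (SE 0.12) and in ADC1 by 0.21 (SE 0.09), and was lower in AT3G25570 (-0.56, SE 0.16) and SPDS1 (-0.31, SE 0.04), 6 of 9 against 68.7%. The ADC1 call ended without Col-0 ex2 morning replicate 1, Col-0 ex3 evening replicate 3, Moj ex2 morning replicate 3 or Moj ex3 morning replicate 2 (limma adjusted p between 0.06 and 0.0831), and with the library left out put back (adjusted p = 0.0716). The ADC2 call ended without any 1 of 8 of the 33 libraries (adjusted p between 0.0504 and 0.08). Vel was lower than Col-0 in AT3G25570 (-0.68, SE 0.16), SPMS (-0.43, SE 0.09) and SPDS1 (-0.19, SE 0.04), 3 of 9 against 64.6%. BUD2 did not pass in Moj (-0.14) or Vel (-0.15), but passed without any 1 of 5 and of 8 libraries, and ADC2 in Bon (0.21) passed without Bon ex3 evening replicate 3 (adjusted p = 0.0243). Over these collections the xylem marker sums ran from 6.75 to 120 in Bon and from 6.73 to 128 in Moj, against 2.15 to 26.3 in Col-0 and 5.48 to 25.5 in Vel, and 4 of the 6 markers were higher in Bon and in Moj than in Col-0. PYK10 was lower in Vel (-1.35), CAB2 was lower in Bon (-0.69) and Moj (-0.38), and of the 6 flower organ markers 2 were higher in Bon, 1 was higher in Moj and 1 was lower in Vel. The part of these markers in the accession differences was not tested. The 3 comparisons share the Col-0 libraries. Reads of all accessions were aligned to the TAIR10 build of the reference line, and the part of sequence differences from it was not tested.

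**Figure D5:**
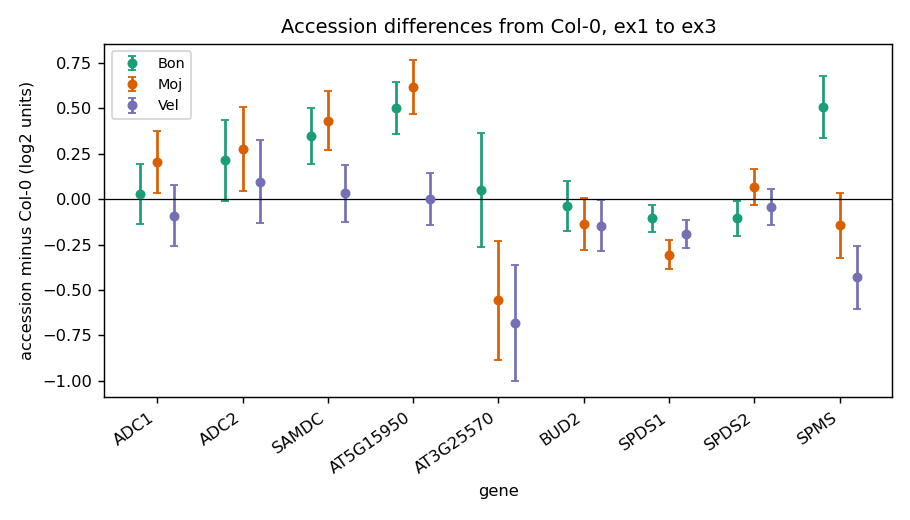
Difference from Col-0 in log2 units (vertical axis) of each of the 9 genes (horizontal axis) in Bon, Moj and Vel over ex1 to ex3 and both times, with bars for the 95% interval of the limma fit. SPDS1 is below 0 in all 3 accessions, AT5G15950 and SAMDC are above 0 in Bon and Moj and near 0 in Vel, and AT3G25570 is below 0 in Moj and Vel.

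The average of AT5G15950 was the same in Vel and Col-0 (difference 0.00, 95% interval -0.15 to 0.15) although the levels were not. In the mornings of ex1 the Vel libraries lay between 8.35 and 8.55 and those of the other accessions between 9.02 and 9.64, and in ex3 the Vel libraries read 8.90 and 9.15 and the others 9.35 to 10.55. In the evenings of ex2 Col-0 lay between 2.55 and 3.19 and the others between 3.62 and 4.23, and in ex3 Col-0 lay between 1.83 and 2.26 and the others between 3.17 and 3.93. Vel thus had the lowest morning and Col-0 the lowest evening levels in these groups, whereas in ex1 evening Vel was lowest, at 6.08 to 6.45. The mean evening difference was -5.38 in Col-0, -4.59 in Moj, -4.45 in Bon and -4.10 in Vel. These differences rest on the values behind the choice of the gene and are given as a description.

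A limma F test of equal evening differences among the accessions over ex1 to ex3 passed for 5 of 9 genes, against 28.1% of all genes. That count includes AT5G15950, whose pass reuses the values behind its choice and adds no support. SPDS2 (adjusted p = 0.000543) had a mean evening difference of 1.28 in Bon, 1.04 in Moj, 0.95 in Vel and 0.77 in Col-0. SPDS1 (adjusted p = 0.00205) had 0.98 in Bon, 0.82 in Vel, 0.74 in Moj and 0.63 in Col-0, so that Bon was highest and Col-0 lowest in both. ADC1 (adjusted p = 0.0076) had -2.12 in Moj and -1.45 to -1.65 in the others. ADC2 (adjusted p = 0.00971) differed in sign: it was higher in the evening in all 3 collections of Bon, by 0.17 to 0.48 but with overlapping libraries each time, and lower in all 3 of Col-0, by 0.43 to 0.99, without overlap in ex2 and ex3. An F test of equal changes between collections passed for 6 of 9 genes against 72.9% of all genes. From ex1 to ex2 SPMS rose by 1.67 in Moj, 1.24 in Vel, 0.99 in Bon and 0.71 in Col-0 (limma adjusted p = 0.000134), and SPDS2 changed by -0.90 in Moj and -0.08 in Col-0 (adjusted p = 5.6e-08). SPDS1 changed by 0.32 in Col-0 and -0.20 in Moj (adjusted p = 7.26e-05) and BUD2 by 0.39 in Col-0 and -0.24 in Bon (adjusted p = 0.000186). AT5G15950, also in the count, changed by -2.20 in Col-0 and -1.12 in Vel. Its fall was an evening one and draws on the values behind its choice, so its pass adds no support. ADC2 passed with an adjusted p of 0.0353, which lay between 0.0502 and 0.096 without any 1 of 9 of the 68 libraries.

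Loci with numbers next to those of the S-adenosylmethionine decarboxylase genes have rows of their own in the table but no entry in the reference annotation used here. They were listed as the upstream reading frame partners of SAMDC, AT5G15950 and AT3G25570. Whether they share reads with these genes, and so take part of their signal, is not known. AT5G15948 was listed at 0 in the evening in 5 of 10 libraries of ex1, 11 of 12 of ex2, 10 of 12 of ex3 and 4 of 5 of ex4. In the morning it was listed at 0 in 2 of 12 libraries of ex2 and in none of the other collections, where it lay between 4.01 and 6.37. In ex1 evening all Bon and Col-0 libraries were above 0 and all Moj and Vel libraries at 0. AT3G02468 ran from 1.15 to 8.82 and AT3G25572 from 0.32 to 3.60 over all libraries. In Bon, AT3G02468 was higher in the evening in ex2 (2.51) and ex3 (1.81), without overlap, where SAMDC was lower. In the other accessions of ex2 its evening difference was 0.91 in Col-0, 0.60 in Moj and -0.10 in Vel, with overlap. In the remaining pairs of ex1, ex3 and ex4 it ran from -2.93 to -0.28.

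Over the 28 group means, the levels of AT5G15950 went with those of ADC1 (Pearson r = 0.92) and SAMDC (0.88) and ran against those of SPDS1 (-0.86) and SPDS2 (-0.73), as a description of points that share their libraries. The 5 genes most like it by the same measure were COL1 (AT5G15850, r = 0.976), AT3G12320 (0.966), AT1G64500 (0.963), AT1G75180 (0.960) and BBX29 (0.957). COL1 is a relative of the flowering regulator CONSTANS, and BBX29 belongs to the B-box family. Their evening differences over ex1 to ex3 ran from -3.85 to -2.47, all smaller than that of AT5G15950. That gene was chosen for its large fall, so this order is given as a description.

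Other genes around the pathway were read from lists. Of 5 other synthesis genes, ACL5, the thermospermine synthase gene known for xylem development, fell in the evening of ex4 (-1.15, SE 0.13), opposite to SPMS, and ARGAH1, an arginase gene, rose (0.49, SE 0.10), with 1 up, 1 down and a median of 0.14. ACL5 lay between 3.49 and 3.99 in the 6 morning libraries and between 2.18 and 2.95 in the 5 evening libraries. Of 17 genes of S-adenosylmethionine supply and methionine salvage, 8 rose and 2 fell (median 0.30), a share near the 48.9% of all genes called in this comparison, led by the acireductone dioxygenase genes ARD4 (1.78, SE 0.15) and ARD1 (1.55, SE 0.10). Of 12 tested genes of polyamine oxidation, 2 rose and 3 fell (median 0.02), with the polyamine oxidase gene PAO4 at 1.50 (SE 0.10). Of 9 tested genes of transport and conjugation 1 rose and none fell at the threshold (median 0.18). Of 4 genes of arginine supply 2 rose and 1 fell (median 0.05), with NAGK, the N-acetylglutamate kinase gene, at -0.74 (SE 0.13). The median over all genes tested was 0.00.

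The evening difference of the supply and salvage genes changed from ex1 to ex2 in 9 of 17, all with a positive sign (median 0.40, against 0.02 over all genes), a share near the 59% of all genes called in this contrast. MS2, a methionine synthase gene, had the largest, 2.08 (SE 0.16, limma adjusted p = 2.98e-17). Its evening median was 7.09 in ex1 and 7.36 in ex2, and its morning median 6.46 and 4.80, so that the morning level was lower in ex2, as it was in SPDS1 (morning medians 5.50 and 4.82) and SPDS2 (5.22 and 3.97). The evening medians of SPDS1 (5.40 and 6.22) and SPDS2 (5.205 and 5.54) were higher in ex2. Of the arginine supply genes 3 of 4 changed, all with a positive sign (median 0.69). NATA1, an acetyltransferase gene of ornithine and putrescine, changed by -3.41 (SE 0.96, adjusted p = 0.00192), with 2 up and 2 down of 9 in its list. Of the other synthesis genes 2 of 5 changed, both positive, and of the oxidation genes 5 were positive and 4 negative of 12.

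Between collections, 83.2% of all genes were called from ex1 to ex2, 54.7% from ex2 to ex3 and 56.7% from ex3 to ex4, and the counts of the lists are a description beside these shares. Of the arginine supply genes 4 of 4 fell from ex1 to ex2 (median -0.65, against -0.03 over all genes), 3 of 4 from ex2 to ex3 and 4 of 4 from ex3 to ex4. AT5G10920, the argininosuccinate lyase gene, fell by 1.19 and NAGK by 0.91 in the earliest of these steps. ARD3, of the salvage cycle, rose by 4.31 (SE 0.19) from ex1 to ex2 and fell by 2.21 (SE 0.19) from ex2 to ex3, and of its list 9 rose and 6 fell, then 8 rose and 5 fell, and 8 rose and 4 fell at ex4. Of the oxidation genes 5 rose and 6 fell from ex1 to ex2, with AT4G12290 up by 4.29 (SE 0.13) and AT1G31690 down by 2.37 (SE 0.14). They were followed by 4 up and 5 down at ex3 and 3 up and 3 down at ex4. Of the transport and conjugation genes 5 rose and 1 fell, then 4 rose and 2 fell, then 2 rose and 2 fell. Of the other synthesis genes 3 rose and 2 fell, then 2 rose, then 1 rose and 2 fell.

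Between accessions, 66.5% of all genes were called in Bon, 68.7% in Moj and 64.6% in Vel, and the counts of the lists are again a description. Here too, the part of sequence differences from the TAIR10 build of the reference line was not tested. ARGAH2, an arginase gene, stood at 4.62 to 8.59 in the 17 Col-0 libraries of ex1 to ex3 (median 5.77) and at medians of 1.09 in Bon, 1.61 in Moj and 0.80 in Vel, where the highest libraries reached 5.43, 3.17 and 3.57, so that only Bon overlapped Col-0. Its differences from Col-0 were -4.03 (SE 0.25), -4.11 (SE 0.26) and -4.39 (SE 0.26), and 4, 5 and 5 of the 5 other synthesis genes were lower than in Col-0 and none higher. Of the supply and salvage genes 7 were higher and 5 lower in Bon, 7 and 6 in Moj and 4 and 5 in Vel. ARD3 led in Moj (2.29, SE 0.22). Of the transport and conjugation genes none was higher, and 5, 5 and 3 of 9 were lower. PUT4, a polyamine uptake transporter gene, was lower by 0.83, 0.76 and 0.72. The oxidation genes gave 3 up and 3 down in Bon, 5 and 2 in Moj and 3 and 4 in Vel, and the arginine supply genes gave calls in Vel only, 2 up.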

How the data were processed

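RNA from rosettes was sequenced as polyA libraries made with a kit that does not mark strand, per the labels' protocols. Per the submitters' processing notes the authors used FastQC, HISAT2, StringTie and the TAIR10 build, none with a version that could be read from the sources used here. The deposited values behave as log2 of a length-normalized estimate plus 1, made equal in distribution between libraries by the authors; this was read from the values. They are not counts, so no count test was run and depth is unknown. Reads of overlapping genes cannot be told apart.

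The library labelled Moj ex3 morning replicate 1 was left out by the rule that chose the genes. Values of at least 1 in at least 3 libraries were required. Limma 3.58.1 in R 4.3.3 was fitted with 1 mean per group (79 libraries, 51 residual degrees of freedom, empirical Bayes with trend, groups weighted equally). Tests were two-sided, with Benjamini-Hochberg adjustment over 20871 genes and a threshold of 0.05. The fit was tested on simulated data. The evening difference over ex1 to ex3, and that of AT5G15950 in ex4, are given without a test because AT5G15950 was chosen for it. For the same reason, how the evening difference of AT5G15950 varied between collections and accessions is given as a description. The adjusted p-values of its F tests are listed with the flagged results only and are no support. The members, lists and comparisons were chosen with earlier results of these data known. From each other list at most the 2 passing genes with the largest absolute difference were named per comparison, and the 5 genes most like AT5G15950 were taken by Pearson correlation over 28 group means. Of 33602 gene IDs, 32835 matched RefSeq TAIR10.1, from which positions and sequences came. Alternatives were no filter on low values, an offset of 0.1, no trend, a block for the replicate number, the library put back, and each library left out.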

Additional observations from a re-analysis of the deposited data

Results flagged for a closer look

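Tests of a difference between groups in the same contrast, over all genes by limma with Benjamini-Hochberg adjustment, picked out 8 of the 9 genes, each in some test. The share of all genes passing any of these tests was not computed. In the single contrasts of the evening difference below, 59%, 36.3% and 9.94% of all genes passed. For AT5G15950, which is among the 8, these contrasts reuse the values behind its choice, so its part in the count is no support. AT3G25570 was the exception, but passed the F test of changes between collections without any 1 of 3 of the 68 libraries (limma adjusted p between 0.027 and 0.0398). Between ex1 and ex2 the evening minus morning difference changed by -3.20 in AT5G15950, by -1.04 in ADC1 and by -0.98 in SAMDC, and by 1.60 in SPDS2, 1.50 in SPDS1 and 0.43 in BUD2. Between ex2 and ex3 it changed by -1.07 in AT5G15950 and by -0.26 in SPDS2. Between ex3 and ex4, in Col-0 and Vel, it changed by -0.31 in SPDS1 and by -0.37 in SPDS2.

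The evening difference over ex1 to ex3 was unequal among the 4 accessions in SPDS2, SPDS1, ADC1 and ADC2. The limma F tests gave adjusted p of 0.000543, 0.00205, 0.0076 and 0.00971 in this order. For AT5G15950 the same test gave 7.63e-09, but it reuses the values behind the choice of the gene and adds no support. Changes between collections were unequal among the accessions in SPDS2 (adjusted p = 5.6e-08), SPDS1 (7.26e-05), SPMS (0.000134), BUD2 (0.000186) and ADC2 (0.0353). For AT5G15950 this F test gave 6.75e-09. Its fall from ex1 to ex2 was an evening one and draws on the values behind its choice, so this pass adds no support either. Of the genes tested in the whole table, 28.1% and 72.9% passed these F tests.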

How the results depend on the processing

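The number of the 9 genes called in each comparison did not move by over 1.5 times without the filter, with the offset of 0.1, without the trend, with the replicate block or with the Moj ex3 morning library put back. Leaving out 1 library at a time moved it in 1 comparison, the change of the evening difference from ex3 to ex4, where it ran from 0 to 2. Of single values of genes under the other alternatives, 1140 kept their direction and side of the threshold, 13 lost the threshold, 1 gained it and 1 changed sign: SPMS from ex2 to ex3 was -0.000588 with the library put back. Among members, the loss of the filter ended the calls of AT5G15950 from ex2 to ex3 (adjusted p = 0.0517), of SPDS2 in Bon (0.0528) and of ADC2 in the test of collections by accession (0.0512), and putting the library back made SPDS1 pass for the evening difference from ex2 to ex3 (-0.17, adjusted p = 0.0385). The cause was not tested.

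With 1 library left out, uncalled values changed sign in 9 results. They ran from -0.0273 to 0.0552 for ADC1 and -0.0572 to 0.153 for AT3G25570 in Bon, and from -0.0273 to 0.0278 for AT5G15950 and -0.0127 to 0.0741 for SAMDC in Vel. They ran from -0.0840 to 0.0109 for BUD2 from ex1 to ex2, from -0.0197 to 0.0460 for SPMS from ex2 to ex3, and from -0.0440 to 0.128 for ADC2 and -0.0323 to 0.0211 for SPDS1 from ex3 to ex4. The evening difference of SAMDC from ex3 to ex4 ran from -0.0720 to 0.188.

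Same-numbered libraries did not deviate together (37 pairs, r from -0.27 to 0.41, 12 over 0.1; 15 of 40 morning libraries correlated best with their own number), so the numbers were not taken as pairs. The replicate block changed no call, and gave -4.63 for the evening difference of AT5G15950. With no counts, the depth behind low values such as those of BUD2 cannot be given.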
